A study of Mus musculus with 8 samples.

Results

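The mouse genome carries its Hox genes in 4 clusters, HoxA, HoxB, HoxC and HoxD. Members were taken by gene name, as every entry of the deposited table called Hoxa, Hoxb, Hoxc or Hoxd followed by a number alone. The rule found 38 genes of 20254 in the table: 11 in HoxA and 9 in each of HoxB, HoxC and HoxD. Antisense and other transcripts of the clusters have other names and are given separately. Expression was measured by sequencing polyadenylated RNA from 8 libraries of GFP-sorted kidney cells from mouse embryos of day 17.5. All libraries came from strain Six2EGFPcre, a transgene that makes a fusion of GFP and Cre recombinase under control of Six2, a transcription factor of nephron progenitors. The control group holds 4 libraries of genotype VHLNP+/-, heterozygous for loss of Vhl in these cells, and the mutant group 4 libraries of genotype VHLNP-/-, homozygous for it. Controls therefore carry the transgene and 1 lost allele as well, and the comparison is not with wild-type cells. The labels do not say whether each library came from a separate embryo or a pool, so p-values measure only the spread between these libraries.

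Hox proteins are homeodomain transcription factors that give cells a position along the body axis. Genes that take the same place in the 4 clusters form a paralog group: low-numbered groups are used towards the head and early, high-numbered groups towards the tail and late. In the developing kidney the group 11 genes Hoxa11, Hoxc11 and Hoxd11 are known to act together with Eya1 and Pax2 in the metanephric mesenchyme on Six2 and Gdnf, and group 9 and 10 genes are also known for roles there. VHL protein marks HIF subunits for destruction in the presence of oxygen, and the study asked how its loss alters nephron progenitors.

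Library totals were between 37252683 and 46515762 reads. Hox genes took 0.212% to 0.222% of the reads in controls and 0.194% to 0.214% in mutants. Values are normalised reads, which are the reads of a gene divided by the size factor of its library. Vhl, the check of the labels, stood at 1134, 1379, 1208 and 1180 normalised reads in controls 1 to 4 and at 320, 285, 331 and 336 in mutants 1 to 4. The progenitor markers Six2 (between 21553 and 28134) and Eya1 (between 14245 and 17773) were high in all 8 libraries. Of 6 progenitor markers Meox1, Osr1 and Tmem100 fell and none rose (limma, adjusted p under 0.05), against 3.03% of all genes called lower and 5.40% called higher. The call of Osr1 (limma adjusted p = 0.040) was lost on leaving out control 2, 3 or 4 or mutant 1, 2 or 4 singly. Markers of other cells were also present, and no listed marker was at 0 in all 8 libraries. The sum of 10 stroma markers was 56598, 37151, 25263 and 32052 normalised reads in controls 1 to 4 and 45138, 21562, 35206 and 37207 in mutants 1 to 4, with 0 of 10 called. The sum of 10 ureteric bud markers was lowest in control 3 (715) and highest in mutant 1 (3829), with 0 of 10 called. The sum of 5 podocyte markers spanned 1375 to 7252 in controls and 949 to 2303 in mutants with 1 of 5 called, as lower. The part of these cells in the Hox results was not tested, and in such bulk libraries fewer cells of a type and less RNA per cell cannot be told apart.

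The sorted cells expressed most of the Hox repertoire, with a sharp posterior limit. To compare genes, levels were divided by the length of the gene's coding-transcript exons (normalised reads per exonic kb, with SD over 4 controls). In HoxD, Hoxd11 had 8271 ± 521, Hoxd10 2342 ± 72.5, Hoxd12 982 ± 69.4 and Hoxd9 832 ± 58.9. The next gene towards the 5′ end of the cluster, Hoxd13, a gene of the distal limb and hindgut, had 2.98 ± 0.37. HoxA dropped likewise from 1635 ± 129 at Hoxa11 to 0.70 at Hoxa13. HoxC dropped from 4401 ± 324 at Hoxc10 to 262 ± 30.8 at Hoxc11, and Hoxc12 was listed at 0 in 7 of 8 libraries, where a count of 0 allows up to 3 reads in a library. HoxB in this table ends at Hoxb9 with 1774 ± 162.

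**Figure D1:**
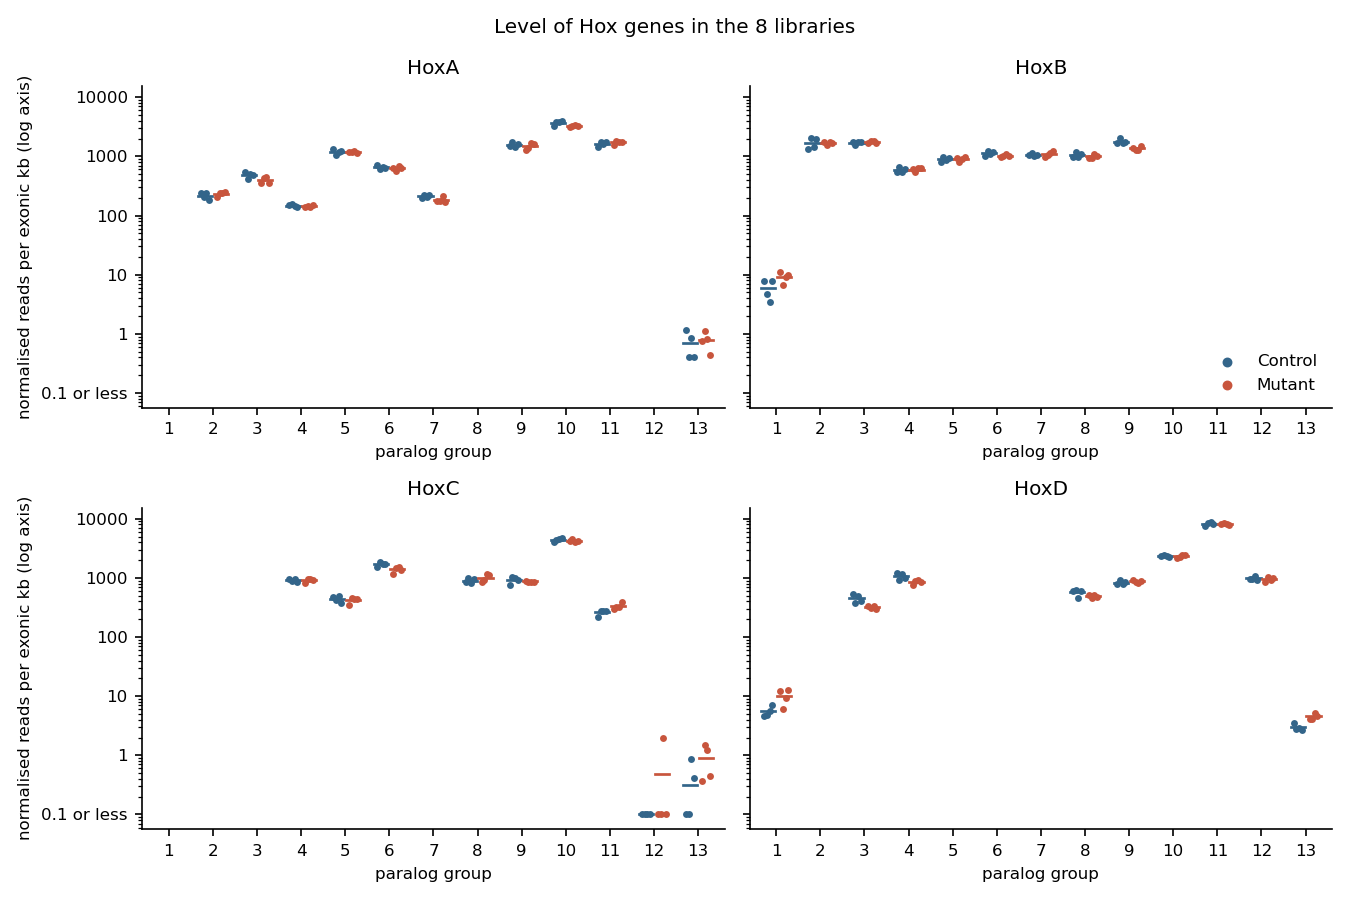
Level of the Hox genes (y axis, normalised reads per exonic kb, log axis, with values of 0.1 or less drawn at 0.1) by paralog group (x axis) in the 4 clusters. Points are the 4 control and 4 mutant libraries and bars are their means. Summed over the clusters, levels were lowest in groups 1 and 13 and highest in groups 10 and 11, though Hoxc11 and Hoxc12 lay far below their paralogs. The control and mutant libraries lie on top of each other for nearly every gene.

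Ranked per exonic kb in controls, the order began with Hoxd11, Hoxc10, Hoxa10 and Hoxd10, and each of these differed from the next by more than the sum of both SDs. From Hoxb9 the order ran through Hoxc6 (1708 ± 120), Hoxb2 (1688 ± 358), Hoxb3 (1683 ± 100) and Hoxa11 to Hoxa9 (1575 ± 141), and none of these 6 differed from its neighbour by that measure. Hoxa5 headed the next run (1196 ± 106), which went down without such a gap through Hoxb6, Hoxd4, Hoxb8, Hoxb7, Hoxd12, Hoxc9, Hoxc4, Hoxc8 and Hoxb5 to Hoxd9. Below it lay Hoxa6 (657 ± 44.6), Hoxb4, Hoxd8, Hoxa3, Hoxd3 and Hoxc5 (436 ± 50.2), then Hoxc11, Hoxa2 (216 ± 28.8) and Hoxa7 (211 ± 12.5), then Hoxa4 (146 ± 7.7). The first place of Hoxd11 depends on the transcript model. Its coding model is 1.111 kb long, and with its longest annotated transcript of 3.367 kb its level was 2729 per kb, behind Hoxa10 and Hoxc10. Exons of the same-strand model Gm28309 overlap those of Hoxd10 and Hoxd11, so their reads may be mixed. Antisense exons overlap those of some members, among them Hoxb2 and Hoxb3 (Hoxb3os), Hoxa3 (Hoxaas2 and Hoxaas3) and Hoxa7 (Hoxaas3). Reads may be mixed there too, as no label or header says whether the authors' counting used the strand.

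Group 1 genes and group 13 genes were close to the detection limit. Hoxb1, which patterns the hindbrain, had 7.3 to 22.7 normalised reads over the 8 libraries and Hoxd1 8.7 to 24.1. Hoxd13 had 8.7, 6.9, 7.3 and 6.7 in controls and 10.4, 10.2, 13.1 and 11.5 in mutants. It passed the low-value filter only through the mutants, so its lack of overlap between groups has no weight. Hoxa13 (1.0 to 2.9), Hoxc12 (0 to 2.0) and Hoxc13 (0 to 3.7) stayed under the filter, which asked for 10 normalised reads or more in 4 or more libraries. That left 35 of 38 Hox genes in the test.

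Loss of Vhl was accompanied by small differences in the Hox clusters. With limma on log2(normalised reads + 1), adjusted over the 15381 genes tested, 2 of 35 Hox genes fell (Hoxb9 and Hoxd3), 0 rose and 33 were not called. The background was 8.43% of all genes called, 5.40% as higher and 3.03% as lower. At an unadjusted p under 0.05, 8 Hox genes were lower and 2 higher, against 23.3% of all genes in either direction. With limma-voom 4 Hox genes were lower (background 5.18%) and 0 higher (4.86%). The authors' deposited comparison called 5 of 34 lower (background 5.35%) and 1 higher (7.12%). With library quality weights in limma, 9 were lower (background 8.93%) and 1 higher (10.5%).

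Estimates were below 0 for 21 Hox genes and above 0 for 14. The median log2 fold change was -0.03 for Hox genes and -0.01 for all genes tested, and the median size without regard to sign was 0.09 against 0.12. For 26 of 35 the 95% interval of the fold change lay wholly within 0.5 log2 units (1.41-fold) of 0. A difference larger than that was therefore outside the interval for most Hox genes, while smaller ones could go undetected. Among the 31 members with a mean of at least 100 normalised reads, the largest difference in size was that of Hoxd3, 0.49.

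**Figure D2:**
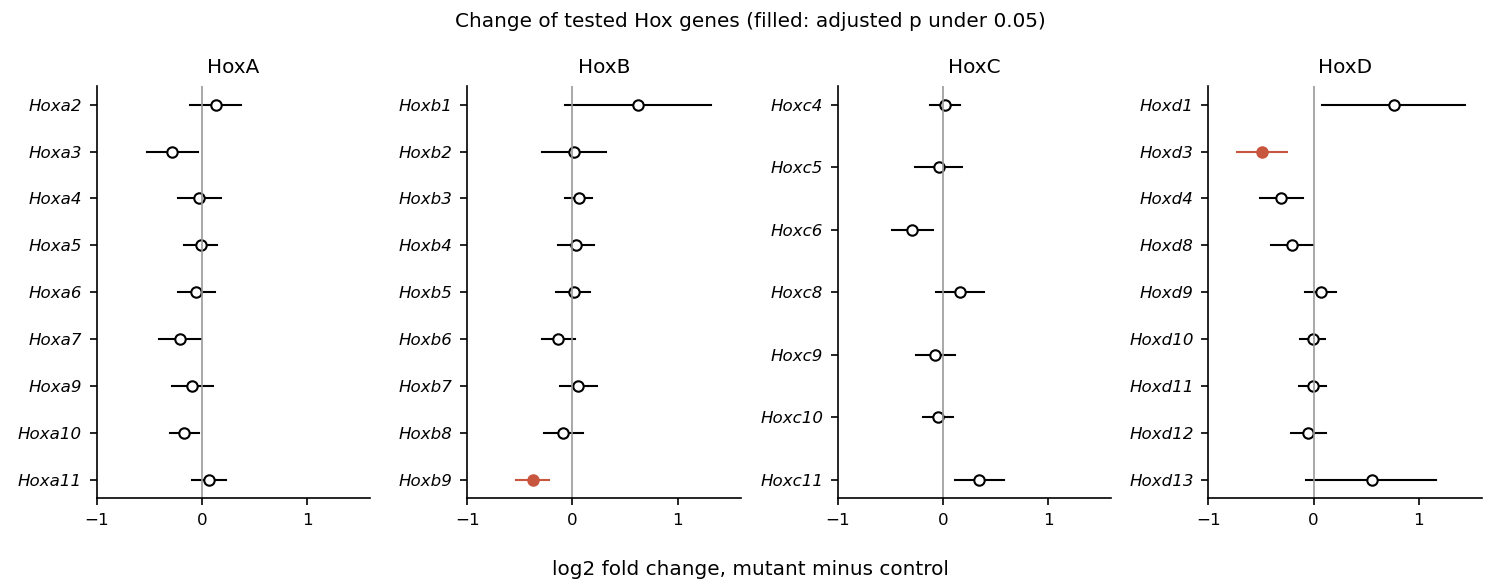
Log2 fold change of mutants over controls (x axis) for tested Hox genes, by cluster, from anterior at the top to posterior at the bottom. Points are limma estimates on the log2(normalised reads + 1) scale, lines are 95% intervals and filled points have an adjusted p under 0.05. Only Hoxb9 and Hoxd3 are filled, and the widest intervals belong to the scarce genes Hoxb1, Hoxd1 and Hoxd13.

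Hoxb9 lies on chromosome 11 (mm10, 96271457 to 96276595, plus strand) and no annotated gene overlaps it. Its protein is a group 9 factor that patterns the thoracic skeleton together with its paralogs. It stood at 4261, 5179, 4350 and 4471 normalised reads in controls 1 to 4 and at 3545, 3301, 3324 and 3830 in mutants 1 to 4. All mutants lay below all controls, with control 2 highest. In log2 units Hoxb9 fell by 0.38 (SE 0.07, limma adjusted p = 0.0083), to 76.7% of the control mean. Leaving out any single library gave adjusted p of 0.0081 to 0.028 in limma. Without both control 2 and mutant 2 it was 0.059, and on the deposited values as they are 0.097.

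The other group 9 genes were not called, and their difference from Hoxb9 was not tested. Hoxa9 had 4812, 5634, 4621 and 5264 normalised reads in controls and 4196, 4522, 5336 and 5131 in mutants. Hoxc9 had 1815, 2426, 2319 and 2192 in controls and 2137, 2036, 2059 and 2024 in mutants. Hoxd9 had 1678, 1953, 1696 and 1785 in controls and 2002, 1822, 1746 and 1878 in mutants. The groups overlapped for all 3, and their log2 fold changes were -0.09, -0.08 and 0.07 (limma adjusted p = 0.611, 0.637 and 0.597). Per exonic kb, Hoxb9 made up 34.8% ± 0.68 of group 9 RNA in controls and 29.6% ± 1.38 in mutants, each with SD over 4 libraries. Hoxd9 made up 16.3% ± 0.28 and 19.0% ± 1.37. Summed reads of the 4 genes were 13614 ± 1153 in controls and 12223 ± 541 in mutants, 89.8% of the control mean, and the groups overlapped.

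Hoxd3 lies on chromosome 2 (mm10, 74711927 to 74748442, plus strand). Group 3 factors pattern the cervical vertebrae and pharyngeal derivatives. It stood at 1754, 1209, 1597 and 1323 normalised reads in controls 1 to 4 and at 1080, 1014, 1096 and 960 in mutants 1 to 4. No mutant reached the lowest control, but controls 1 and 3 were well above controls 2 and 4. Hoxd3 fell by 0.49 (SE 0.11, limma adjusted p = 0.0172) to 70.5% of the control mean. The call was lost without mutant 2 (adjusted p = 0.051) or mutant 4 (0.064), and without both control 3 and mutant 2 (0.106). Exons of the antisense gene Hoxd3os1 and of the same-strand model Gm28230 overlap those of Hoxd3. No label or header says whether the authors' counting used the strand, so reads of these genes may be mixed.

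The neighbouring Hoxd4 lies inside the annotated span of Hoxd3 (74711929 to 74729160), and in the GENCODE models used the earliest starts of both genes are 2 bases apart. Exons of Gm28230 overlap those of Hoxd4 too, so reads may be mixed here as well. Hoxd4 had 3088, 2343, 2958 and 2504 normalised reads in controls 1 to 4 and 1966, 2238, 2376 and 2199 in mutants 1 to 4. As for Hoxd3, controls 1 and 3 were the highest 2 libraries. Mutant 3 exceeded control 2, so the groups overlapped. The difference was -0.31 (SE 0.09) and did not pass the test (limma adjusted p = 0.070). The authors' deposited table has an adjusted p of 0.0214 for it. The other group 3 and 4 genes had fold changes of -0.28 for Hoxa3 and between -0.03 and 0.06 for Hoxb3, Hoxa4, Hoxb4 and Hoxc4.

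The 250 bases before the RefSeq starts of Hoxd3 (GRCm38.p6, chr2:74711743-74711992, plus strand) and Hoxd4 (chr2:74721728-74721977, plus strand) are shown because these adjacent genes had the most negative estimates of their cluster. Capitals mark TTTATG, the core recognised by Cdx factors, which set up Hox expression in the early embryo.
Hoxd3: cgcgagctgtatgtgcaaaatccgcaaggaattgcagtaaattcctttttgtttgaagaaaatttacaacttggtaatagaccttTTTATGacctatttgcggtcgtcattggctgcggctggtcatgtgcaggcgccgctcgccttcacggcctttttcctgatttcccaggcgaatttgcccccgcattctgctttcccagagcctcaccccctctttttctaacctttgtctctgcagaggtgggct
Hoxd4: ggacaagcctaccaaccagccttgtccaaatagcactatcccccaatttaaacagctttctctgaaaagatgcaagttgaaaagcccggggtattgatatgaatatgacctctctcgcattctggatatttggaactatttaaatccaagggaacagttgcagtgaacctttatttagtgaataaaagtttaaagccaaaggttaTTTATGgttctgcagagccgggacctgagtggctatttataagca
RefSeq gave such windows for 22 of 38 Hox genes (24 windows), and none for Hoxb9. Searched on both strands, TTTATG occurred in 5 of the 24 Hox windows and in 10.8% of all 32851 windows of this length. The cores of the HIF response element, ACGTG and GCGTG, occurred in 5 and 7 of the 24 Hox windows and in 16.6% and 28.2% of all windows. The Hoxd3 and Hoxd4 windows hold neither. These matches describe the letters in the windows only.

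Hoxc6 and Hoxc11 had the next smallest adjusted p with Hoxd4. Hoxc6, a factor of the thoracic region, had 2457, 2920, 2705 and 2718 normalised reads in controls and 1858, 2366, 2451 and 2141 in mutants. The groups were separated only by the gap between mutant 3 and control 1, which were nearly equal. Its difference was -0.30 (SE 0.09) and was not called by limma (adjusted p = 0.063). It was called lower in 7 of 20 alternatives, among them limma-voom (0.049), the authors' deposited table (0.0221) and limma without control 1 (0.039) or mutant 3 (0.044). Hoxc11 went the other way, with 436, 567, 556 and 557 in controls and 606, 654, 644 and 778 in mutants. The groups did not overlap and the estimate was 0.34 (SE 0.11, limma adjusted p = 0.074), while the authors' deposited table has an adjusted p of 0.0354. Among the 35 tested genes, 3 had all mutants below all controls (Hoxb9, Hoxc6, Hoxd3; background 6.72%) and Hoxc11 had all mutants above (background 8.54%), leaving Hoxd13 aside.

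**Figure D3:**
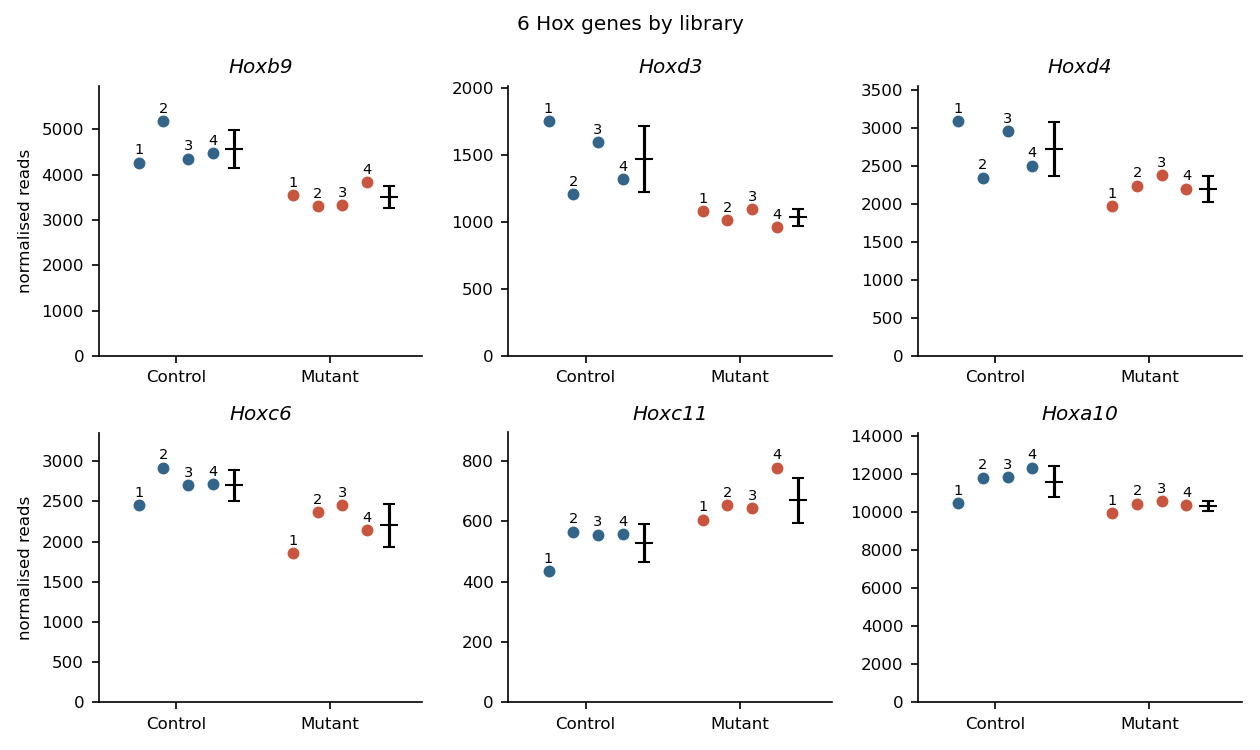
Normalised reads (y axis, from 0) of 6 Hox genes in the 4 control and 4 mutant libraries, with library numbers beside the points and mean ± SD as bars. Hoxb9 and Hoxd3 were called lower, the other 4 were not called, and Hoxc11 is the only one of the 6 with higher values in mutants.

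None of the group 10 and 11 genes was called in limma. Hoxd11 had 8417, 9513, 9731 and 9094 normalised reads in controls and 8939, 9522, 9174 and 8821 in mutants, a log2 fold change of -0.01 with a 95% interval of -0.14 to 0.12. Hoxa11 had 3331, 3961, 3716 and 3945 in controls and 3524, 4135, 4076 and 3989 in mutants (0.07, interval -0.09 to 0.23). Exons of the antisense transcript Hoxa11os overlap those of Hoxa11. The 3 group 11 genes summed to 13456 ± 872 in controls and 13716 ± 522 in mutants. Hoxc11 was the least of them, with 2.57% ± 0.17 of group 11 RNA per exonic kb in controls and 3.24% ± 0.39 in mutants. With the longest transcript of each gene as its length, these shares were 5.64% ± 0.32 and 6.98% ± 0.76.

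Of group 10, which specifies the lumbar region, Hoxa10 had 10444, 11788, 11815 and 12314 normalised reads in controls and 9946, 10428, 10542 and 10333 in mutants. Control 1 was the lowest control and lay within the mutants. Its difference was -0.17 (SE 0.06) and was not called by limma (adjusted p = 0.124). It was called lower by limma-voom (0.046) and in the authors' deposited table (0.0412), and by limma without control 1 (0.025). Hoxc10 had 7591, 8259, 8803 and 8956 in controls and 8167, 8518, 7681 and 8043 in mutants (-0.05, interval -0.19 to 0.09). Hoxd10 had 4239, 4402, 4289 and 4085 in controls and 3967, 4152, 4390 and 4371 in mutants (-0.01, interval -0.13 to 0.11). Its controls had a coefficient of variation of 3.1%, the smallest among members above 100 normalised reads.

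By cluster, summed reads in mutants were 93.5% of the control mean in HoxA, 95.1% in HoxB, 97.0% in HoxC and 94.6% in HoxD. The sum over all Hox genes was 91107 ± 3133 in controls and 86461 ± 2661 in mutants, 94.9%, and the groups overlapped. By paralog group the sums were 93.4% in group 10 and 102% in group 11. Group 6 (Hoxa6, Hoxb6 and Hoxc6) was at 86.9%, the lowest of the 13, and all 3 of its estimates were below 0. Groups 2, 4, 5, 7, 8 and 12 were between 93.1% and 100.5% and group 3 at 95.2%. The sums of group 1 (110%) and group 13 (156%, 9.9 ± 1.9 to 15.5 ± 2.3 normalised reads) rest on few reads.

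The other members with many reads were not called either. Hoxb3, the highest HoxB gene by reads, had 6128, 5399, 6091 and 6086 in controls and 5883, 6283, 6436 and 6039 in mutants (0.06, interval -0.07 to 0.19). Hoxc4, the third HoxC gene by reads, had 2412, 2312, 2415 and 2196 in controls and 2141, 2483, 2459 and 2381 in mutants (0.02, interval -0.12 to 0.16). Hoxb8, which is known for its role in hematopoietic cells and behaviour, had 2569, 3164, 2531 and 2933 in controls and 2491, 2433, 2878 and 2718 in mutants (-0.09, interval -0.27 to 0.10). Hoxb7, whose promoter is widely used to drive transgenes in the ureteric bud, had 1353, 1448, 1304 and 1374 in controls and 1254, 1353, 1493 and 1607 in mutants (0.05, interval -0.12 to 0.23). Beside it, the sums of ureteric bud markers were 2811, 1883, 715 and 3344 in controls and 3829, 1501, 2646 and 2944 in mutants, and their part in the Hoxb7 values was not tested. The not called members with an unadjusted p under 0.05, beside those already given, were Hoxa3 (-0.28), Hoxa7 (-0.21), Hoxd8 (-0.21) and Hoxd1 (0.76, from 10.4 to 18.8 normalised reads). Hoxa2, Hoxa5, Hoxa6, Hoxb2, Hoxb4, Hoxb5, Hoxb6, Hoxc5, Hoxc8 and Hoxd12 had estimates between -0.14 and 0.16.

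Within the controls, Hox genes split in 2 patterns, which were noticed after their values were seen. Of the 31 members with a mean of at least 100 normalised reads, 14 had controls 1 and 3 both below controls 2 and 4, against 17.5% of all 12220 genes at this level. They were Hoxa7, Hoxa9, Hoxa11, Hoxb2, Hoxb4 to Hoxb9, Hoxc6, Hoxc8, Hoxc11 and Hoxd9. Another 9 had controls 1 and 3 both above, against 20.0%, and these were Hoxa2, Hoxa3, Hoxa6, Hoxb3, Hoxc4, Hoxc5, Hoxd3, Hoxd4 and Hoxd12. The largest spread was that of Hoxb2, a hindbrain gene, with 2131, 3270, 2371 and 3218 in controls (coefficient of variation 21.2%) and 2796, 2506, 2835 and 2783 in mutants. Among controls, the sums of stroma markers were highest in control 1 and lowest in control 3. The sums of 6 renal vesicle markers (19952, 21976, 18792 and 21299 in controls 1 to 4), 7 tubule markers (6425, 8126, 2246 and 7418), 7 endothelial markers (1890, 2405, 1316 and 1929) and 7 leukocyte markers (610, 931, 488 and 672) were lower in controls 1 and 3 than in controls 2 and 4. Those of ureteric bud and podocyte markers (3030, 7252, 1375 and 2515) were not split in this way. Neither were those of 6 progenitor markers (47210, 51382, 53714 and 51727) and 2 erythroid markers (70, 73, 110 and 76). The part of these markers in the pattern was not tested.

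**Figure D4:**
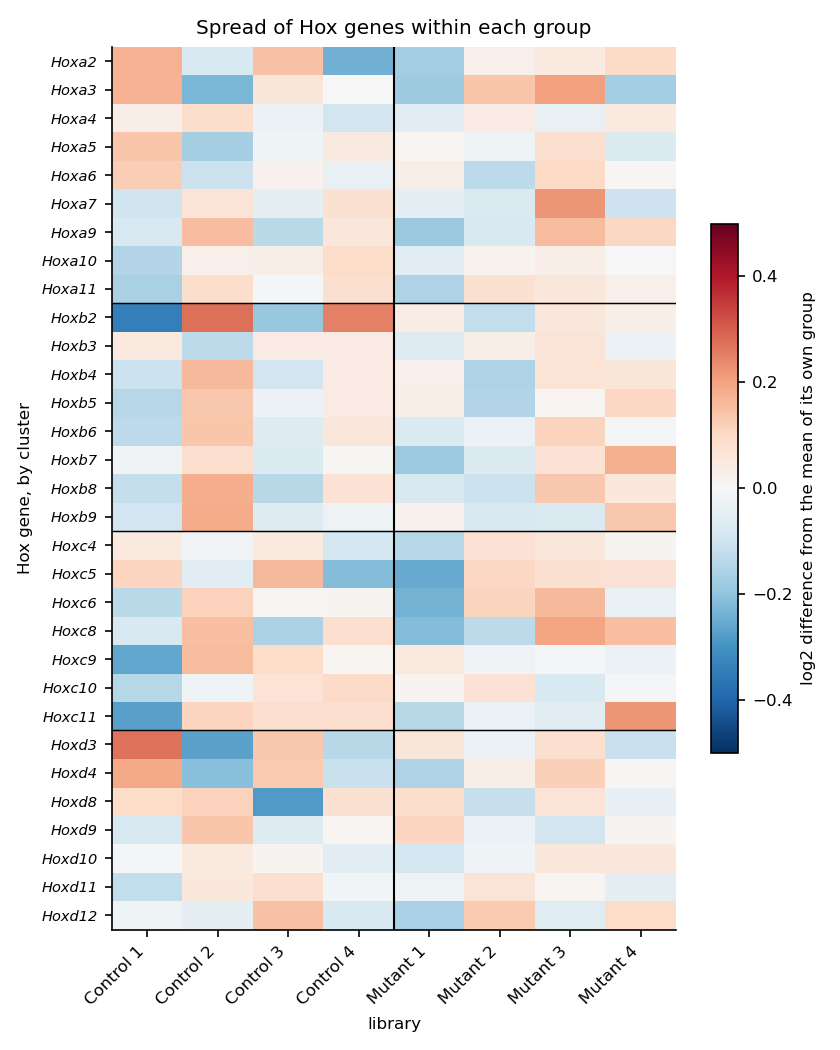
Log2 difference of each library from the mean of its own group (colour) for the 31 Hox genes with a mean of at least 100 normalised reads (rows, by cluster) in the 8 libraries (columns). Hoxb2 has the strongest contrast between controls, and Hoxd3 and Hoxd4 share the colours of controls 1 and 3, opposite to those of Hoxb8 and Hoxb9.

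The clusters also encode microRNAs that are known to target Hox transcripts. Their mature sequences, from RefSeq (GRCm38.p6), are shown with the seed, bases 2 to 8, in capitals. The 2 families have unrelated seeds.
mmu-miR-10a-5p: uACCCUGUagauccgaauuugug
mmu-miR-10b-5p: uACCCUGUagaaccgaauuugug
mmu-miR-196a-5p: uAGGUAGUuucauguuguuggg
mmu-miR-196b-5p: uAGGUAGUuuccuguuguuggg
Mir10a lies in HoxB, Mir10b within the spans of Hoxd3 and Hoxd4, Mir196a-1 in HoxB beside Hoxb9, Mir196a-2 in HoxC and Mir196b within Hoxa9. An exact match to the miR-196 seed after the end of the coding sequence was found in 8 of 38 Hox genes: Hoxa4, Hoxa5, Hoxa7, Hoxa9, Hoxb1, Hoxb6, Hoxb7 and Hoxc8. The search used the longest coding transcript of each gene and exact matches only. Genes without such a match may still be targets. A match to the miR-10 seed was found in Hoxa3, Hoxb3 and Hoxd1, among others. Hoxa7 held 4 matches, and the one with most pairing is shown, with the seed match in capitals.
Hoxa7: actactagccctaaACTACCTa
None of the genes named with a match was called, against a background of 8.43% of all genes, so few calls would be found among so few genes. The fold changes of the 8 genes with a miR-196 match had a median of -0.02 and ran from -0.21 (Hoxa7) to 0.62 (Hoxb1). Those of Hoxa3, Hoxb3 and Hoxd1 were -0.28, 0.06 and 0.76. Libraries of polyadenylated RNA do not measure mature microRNAs. The table's entry Mir196a-1 was at 142 to 167 normalised reads in controls and 124 to 187 in mutants.

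Of the other transcripts of the clusters, 11 of 16 passed the filter and 0 were called (background 8.43%). At an unadjusted p under 0.05, 1 was higher and 0 lower, against 23.3% of all genes in either direction. Hotair, the long noncoding RNA between Hoxc11 and Hoxc12, had 127, 101, 78.3 and 93.2 normalised reads in controls and 97.6, 128, 198 and 181 in mutants (0.56, SE 0.23, limma adjusted p = 0.168). Its groups overlapped, and the difference had the sign of that of Hoxc11 next to it. Halr1 was at 0.23, Hotairm1 at -0.18 and Haglr at -0.06. Hottip, at the 5′ end of HoxA, had at most 1.0 normalised read in any library.

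The TALE homeodomain proteins Pbx, Meis and Pknox bind DNA together with Hox proteins. Of 9 genes tested, 1 fell and 0 rose (background 3.03% lower, 5.40% higher). Pknox2 had 610, 535, 695 and 620 normalised reads in controls and 441, 485, 438 and 378 in mutants. The groups did not overlap, and it fell by 0.50 (SE 0.10, limma adjusted p = 0.0112), which held in all 20 alternatives. Pbx2 was at -0.20 and Pknox1 at -0.15 (limma adjusted p = 0.089 and 0.131), and neither was called. By limma-voom both were called lower (0.040 and 0.041), and the authors' deposited table has 0.0303 and 0.0692. Meis2, among the most abundant of the list, was at -0.03.

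Polycomb and Trithorax proteins keep Hox genes silent or active. Of 26 genes, 1 rose (background 5.40%) and 0 fell (3.03%), a share near the background. Bmi1, a subunit of Polycomb repressive complex 1, had 5864, 4876, 5025 and 5221 normalised reads in controls and 5609, 6406, 7170 and 6788 in mutants. Mutant 1 lay below control 1. Bmi1 rose by 0.31 (SE 0.08, limma adjusted p = 0.045), and leaving out controls 2, 3 or 4 or mutants 2, 3 or 4 singly lost the call (up to 0.141). It was called in 7 of 20 alternatives, among them the authors' deposited table (0.0069), but not by limma-voom (0.090). The smallest adjusted p among the others were those of Cbx2 (-0.31, limma adjusted p = 0.051), the H3K27 demethylase Kdm6b (0.21, 0.068) and Eed (0.16, 0.140). Cbx2 was called lower by limma-voom (0.027) and in the authors' deposited table (0.0142), and Kdm6b higher in that table (0.0163). The catalytic subunit Ezh2 was at 0.02.

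Axial patterning inputs of the Cdx and Gdf11 pathways gave 0 calls among 4 tested genes (background 8.43%). At an unadjusted p under 0.05 there were 0 as well (background 23.3%), and 4 genes are too few to differ from these shares. Gdf11, a signal that sets the position of the hindlimb and kidney along the trunk, was at 696 to 771 normalised reads in controls and 694 to 720 in mutants. The receptor genes Acvr2a, Acvr2b and Tgfbr1 were at 0.10, -0.07 and 0.04. Cdx2 and Cdx4 were at 0 in 7 of 8 libraries each. Cdx1, with 1.9 to 5.8 in controls and 3.7 to 10.4 in mutants, was below the filter.

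Of 9 tested genes known for the metanephric mesenchyme, among them partners and targets of group 11 proteins, 1 rose (background 5.40%) and 1 fell (3.03%). Gdnf, the signal from the mesenchyme that makes the ureteric bud branch, had 5018, 4998, 3930 and 4560 normalised reads in controls and 6371, 5934, 5758 and 6099 in mutants. The groups did not overlap, and it rose by 0.39 (SE 0.08, limma adjusted p = 0.0101). Osr1, an early marker of the mesenchyme, had 4277, 4708, 4391 and 4370 in controls and 3564, 3685, 4205 and 3507 in mutants. It fell by 0.25 (SE 0.07, limma adjusted p = 0.040), a call lost without control 2, 3 or 4 or mutant 1, 2 or 4 (up to 0.138). Six2 was at -0.08, Eya1 at 0.08, Pax2 at -0.02, Sall1 at -0.08 and Wt1 at -0.12, none of them called.

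Genes that flank the clusters gave 2 rises (background 5.40%) and 0 falls (3.03%) among 22 tested. Skap1, an adaptor protein of T cells next to HoxB, had 239, 283, 217 and 251 normalised reads in controls and 461, 449, 463 and 605 in mutants. It rose by 0.99 (SE 0.12, limma adjusted p = 0.00032). The sums of 7 leukocyte markers were 610, 931, 488 and 672 in controls and 900, 561, 718 and 660 in mutants. None of the listed markers is particular to T cells. Of these markers 0 were called (background 8.43%), and their part in the Skap1 values was not tested. Skap1 lies beyond Hoxb1, at the other end of the cluster from Hoxb9, and Hoxb1 was at 0.62 (SE 0.32, limma adjusted p = 0.270) on 7.3 to 22.7 normalised reads. Hnrnpa1, an RNA-binding protein near HoxC, rose by 0.32 (SE 0.07, limma adjusted p = 0.0200), a call lost without control 2 or 4 or mutant 3 or 4 (up to 0.072). Igf2bp1 (-0.21) and Ube2z (0.17) were not called (limma adjusted p = 0.080 and 0.181). Igf2bp1 was called lower by limma-voom (0.029) and in the authors' deposited table (0.0257).

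**Figure D5:**
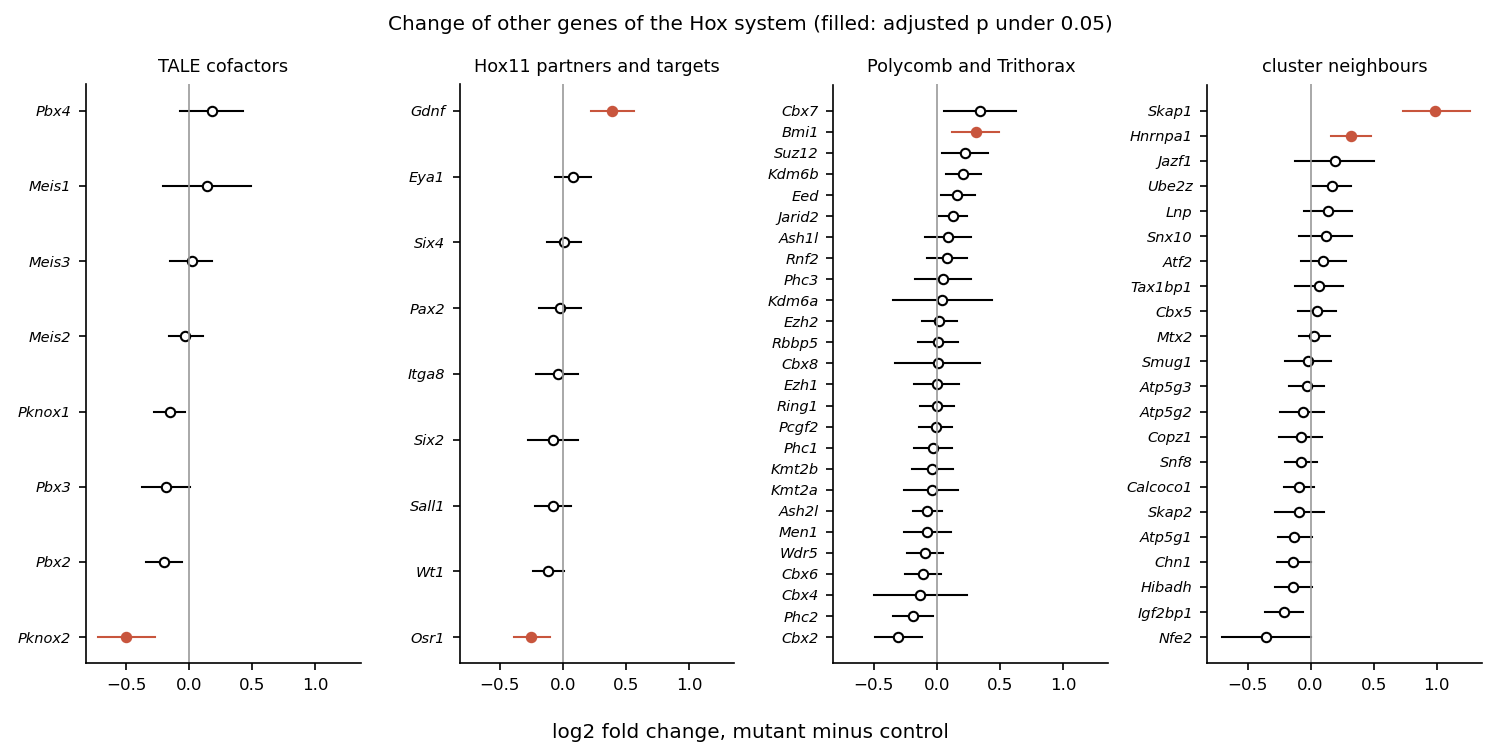
Log2 fold change of mutants over controls (x axis) with 95% intervals for genes of 4 lists. They are TALE cofactors, genes of the metanephric mesenchyme (headed Hox11 partners and targets), Polycomb and Trithorax regulators, and neighbours of the clusters. Filled points have an adjusted p under 0.05: Pknox2, Gdnf, Osr1, Bmi1, Skap1 and Hnrnpa1, of which Skap1 lies farthest from 0.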

How the data were processed

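Per the submitters' processing notes, STAR 2.5.3a, DESeq2 1.18.1 and the mm10 build were used; no label or header gives their roles or says whether reads were counted by strand. The deposited values are a signal: reads per gene divided by size factors, which the values show was applied a second time with the 8 factors recycled, then rounded. Undoing this with the deposited mean rebuilt 20254 of 20254 genes. The authors' log2 fold changes and adjusted p-values come from their deposited table, and its deposited test score was not used. Values divided once were tested as log2(value + 1) with limma 3.58.1 (R 4.3.3; trend, robust) over 15381 genes with at least 10 in at least 4 libraries, Benjamini-Hochberg adjusted, threshold 0.05, and the script was tested on simulated data. Lengths and coordinates are from GENCODE M21 (GRCm38, which is mm10), and per-kb levels used exons of coding transcripts. Library totals ran from 37252683 to 46515762 rebuilt reads, and the spread between libraries and, for scarce genes, counting limit the precision.

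Values in every library are given for called members, the 3 with most reads in each cluster, groups 9 to 11, Hoxb7 and the 4 smallest adjusted p; lists give called genes and small adjusted p. Some other members were added after their values were seen. Members, lists and tests were chosen with earlier results of these data known. Replicate numbers were not used to pair samples in the main test. Alternatives were limma-voom, the authors' table, other pseudocounts and filters, the deposited values, a replicate block and libraries left out. Total-read scaling and library quality weights were added after seeing the data. A few genes of the members and lists are not reported here by name.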

Additional observations from a re-analysis of the deposited data

Results flagged for a closer look

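In each of the 70 groups of 4 libraries (35 Hox genes, 2 groups), the highest or lowest library was compared with the rest. In 6 groups it stood apart by more of the group's range than Dixon's 95% limit, which chance passes in about 1 in 20 groups. Hoxa7 was high in mutant 3 (529.5 normalised reads, next 439.5). Hoxb2 was low in mutant 2 (2506, next 2783) and Hoxc5 in mutant 1 (1031, next 1290). Among controls, Hoxb3 was low in control 2 (5399, next 6086), Hoxc11 in control 1 (435.7, next 556.2) and Hoxd8 in control 3 (1274, next 1636). Neither Hoxb9 nor Hoxd3 was among them.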

How the results depend on the processing

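The count of 2 lower Hox genes became 4 with limma-voom, 4 with total-read scaling, 9 with library quality weights, 5 in the authors' deposited table, and 1 with the deposited values as they are. It was also 1 when mutant 2 was left out with control 3, and 1 when it was left out with control 2. Leaving out single libraries gave 1 to 4. The count of 0 higher became 1 with quality weights and 1 in the authors' table. Hoxb9 was called in 18 of 20 alternatives and Hoxd3 in 17 of 20. Of 655 values of the 33 uncalled members under alternatives, 41 had the other sign.

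All genes called (1297) became 697 with the deposited values, 2996 with quality weights, 764 when control 3 and mutant 2 were left out and 662 for control 2 with mutant 2. Leaving out single libraries gave 774 (mutant 4) to 1565 (control 1), with 816 without control 4. Called members of the pathway lists (6) became 3 with the deposited values, 16 with quality weights, 10 in the authors' table and 3 when both control 2 and mutant 2 were left out. Leaving out single libraries gave 3 (control 2, control 4 or mutant 4) to 9.

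With the replicate number as a block, 766 genes were called, 3 pathway members and 3 Hox genes, all lower (Hoxb9, Hoxd3 and Hoxc6). Over the genes tested, log2 values correlated at 0.977 to 0.988 between control and mutant libraries. To look for pairing, the log2 deviations of each library from its group mean were correlated instead. Between same-numbered libraries these deviations correlated at 0.21, -0.14, -0.14 and 0.06, and between control and mutant libraries of unlike number at -0.47 to 0.57. These values cannot settle whether same-numbered libraries were paired, and no label says what they share. An edgeR test and TMM scaling of rebuilt reads were planned and not run. Genes under about 20 reads, as in groups 1 and 13, are limited by counting.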
